A study of Mus musculus with 16 samples.

Results

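Olfactory receptor (Olfr) gene bodies are described here in haploid spermatids, the cells that follow meiosis in the testis. The members were all autosomal genes of the GENCODE vM21 annotation (genome build GRCm38, also called mm10) of the type protein_coding whose name starts with Olfr. This gave 1128 gene bodies of 20807 autosomal protein-coding ones, or 5.42% of the genes and 0.758% of the gene-body bases. Chromatin was profiled by AutoCUT&RUN, in which an antibody tethers micrococcal nuclease to a chromatin feature and the released DNA fragments are sequenced. The antibodies were against histone H3 trimethylated at lysine 9 (H3K9me3), lysine 27 (H3K27me3) or lysine 4 (H3K4me3), and IgG served as the background control. The KO males (ΔH2A.B) carried CRISPR/Cas9 edits of the X-linked genes H2afb1, H2afb2 and H2afb3, which encode the short histone variant H2A.B, and came from 1 line backcrossed to C57BL/6J. The WT males were their siblings. Each of 2 sibling pairs, aged 2 months and not mated, gave live spermatids sorted by Hoechst and propidium iodide staining, and each animal was profiled with all 4 antibodies. The result was 16 libraries in 8 groups of 2, in which replicates 1 and 2 are the 2 sibling pairs. Each replicate has codes of its own in the sample titles, whose meaning is not stated.

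Olfactory receptors are G protein-coupled receptors for odorants, encoded by one of the largest gene families of mammals. Their coding sequence usually lies in a single exon, and most sit in tandem clusters. In olfactory sensory neurons the clusters carry heterochromatin marks, H3K9me3 among them, and a neuron transcribes one allele of one receptor gene. H3K9me3 marks constitutive heterochromatin, H3K27me3 is deposited by Polycomb complexes and favors CpG-dense DNA, and H3K4me3 marks active or poised promoters. Some receptors, Olfr16 among them, are also expressed in the male germ line.

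Member sequences are shown first, as examples of the bodies densest in a mark and of start sites that carried H3K4me3. One set holds the stretches of 300 bases with the most fragments of a mark within bodies that led that mark by density. Stretches that touched repeat-masked bases or an annotated untranslated region were left out of the choice. The stretches shown need not be the densest of the whole body, and their coding share depends in part on this rule. Read on the gene's strand from the GRCm38 genome, with every CG dinucleotide in capitals, they were as follows. For H3K27me3 the stretches came from Olfr283 (chr15:98378329-98378628, minus strand) and Olfr95 (chr17:37211010-37211309, minus strand), both wholly coding, and from Olfr94 (chr17:37198035-37198334, minus strand), which is intronic.
Olfr283: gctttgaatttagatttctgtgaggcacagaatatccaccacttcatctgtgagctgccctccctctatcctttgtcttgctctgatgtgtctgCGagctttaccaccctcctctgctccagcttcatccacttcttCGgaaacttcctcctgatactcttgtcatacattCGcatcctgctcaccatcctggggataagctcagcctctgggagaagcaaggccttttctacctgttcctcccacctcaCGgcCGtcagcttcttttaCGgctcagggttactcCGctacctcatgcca
Olfr95: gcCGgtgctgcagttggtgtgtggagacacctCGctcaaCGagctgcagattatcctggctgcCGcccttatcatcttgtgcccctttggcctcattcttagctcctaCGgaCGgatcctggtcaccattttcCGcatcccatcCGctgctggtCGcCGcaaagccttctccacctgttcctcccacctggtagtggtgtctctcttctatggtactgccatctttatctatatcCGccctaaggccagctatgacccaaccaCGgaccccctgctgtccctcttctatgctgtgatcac
Olfr94: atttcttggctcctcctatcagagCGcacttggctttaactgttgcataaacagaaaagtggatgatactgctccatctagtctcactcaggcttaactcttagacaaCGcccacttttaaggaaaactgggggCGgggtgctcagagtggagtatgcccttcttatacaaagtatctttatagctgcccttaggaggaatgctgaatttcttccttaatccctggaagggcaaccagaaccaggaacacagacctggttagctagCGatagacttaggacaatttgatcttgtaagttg
For H3K9me3 the stretches came from Olfr177 (chr16:58872385-58872684, minus strand) and Olfr178 (chr16:58889918-58890217, minus strand), both coding.
Olfr177: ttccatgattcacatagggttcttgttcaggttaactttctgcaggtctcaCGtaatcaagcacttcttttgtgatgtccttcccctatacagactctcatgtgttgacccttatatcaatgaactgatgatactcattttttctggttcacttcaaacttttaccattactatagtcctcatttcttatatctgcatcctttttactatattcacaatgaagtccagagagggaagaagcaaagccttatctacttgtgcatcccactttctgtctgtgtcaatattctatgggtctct
Olfr178: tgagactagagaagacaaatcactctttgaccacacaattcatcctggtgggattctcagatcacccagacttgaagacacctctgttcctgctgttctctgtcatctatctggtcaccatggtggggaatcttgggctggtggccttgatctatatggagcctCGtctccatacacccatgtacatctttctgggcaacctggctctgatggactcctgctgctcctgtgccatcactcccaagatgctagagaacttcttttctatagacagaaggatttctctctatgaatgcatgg
For H3K4me3 they came from Olfr128 (chr17:37923958-37924257, plus strand) and Olfr761 (chr17:37952261-37952560, minus strand), both coding.
Olfr128: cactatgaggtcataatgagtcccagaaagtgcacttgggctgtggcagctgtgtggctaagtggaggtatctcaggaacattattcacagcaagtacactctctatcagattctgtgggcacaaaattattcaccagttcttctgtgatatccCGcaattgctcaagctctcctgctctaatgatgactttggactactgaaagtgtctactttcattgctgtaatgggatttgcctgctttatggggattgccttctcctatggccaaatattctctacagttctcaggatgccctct
Olfr761: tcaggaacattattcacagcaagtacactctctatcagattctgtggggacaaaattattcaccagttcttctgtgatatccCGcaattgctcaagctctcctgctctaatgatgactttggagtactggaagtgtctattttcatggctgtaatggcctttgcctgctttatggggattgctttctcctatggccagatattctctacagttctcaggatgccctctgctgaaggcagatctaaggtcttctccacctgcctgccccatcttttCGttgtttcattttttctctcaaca
The H3K27me3 stretches printed held 7, 12 and 4 CG dinucleotides, and the 2 H3K9me3 stretches held 1 each. Of the leading stretches not printed, those of Olfr750 and Olfr214 (H3K27me3) held 8 and 0, and those of Olfr461, Olfr135 and Olfr175-ps1 (H3K9me3) held 4, 3 and 0, so the counts of the 2 marks overlap. The Olfr461 stretch held only 1 fragment, 0.137% of those in its gene. The other set is the 250 bases upstream of a start site that carried H3K4me3 in every library. They are RefSeq promoter sequences (GRCm38.p6) of Olfr212 (chr6:116506266-116506515, plus strand) and Olfr701 (chr7:106813879-106814128, plus strand), whose RefSeq and GENCODE starts coincide.
Olfr212: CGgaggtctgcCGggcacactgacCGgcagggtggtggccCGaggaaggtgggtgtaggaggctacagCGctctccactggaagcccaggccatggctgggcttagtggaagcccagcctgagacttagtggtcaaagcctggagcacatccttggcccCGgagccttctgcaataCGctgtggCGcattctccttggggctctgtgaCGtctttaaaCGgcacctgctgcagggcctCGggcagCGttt
Olfr701: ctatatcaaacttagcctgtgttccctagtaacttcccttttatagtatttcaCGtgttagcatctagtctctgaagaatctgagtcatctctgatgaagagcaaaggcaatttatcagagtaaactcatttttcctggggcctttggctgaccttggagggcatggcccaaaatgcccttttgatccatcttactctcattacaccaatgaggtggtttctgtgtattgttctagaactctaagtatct
Olfr212 had 13 CG dinucleotides in its RefSeq window from 250 bases before to 50 after the start, and Olfr701 had 2.

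The members fell into 48 clusters on 17 autosomes when neighbors less than 1 Mb apart were joined. Clusters of 10 or more genes numbered 22 and held 1041 members, and 8 members stood alone. The median body was 5994.5 bp long (894 to 156499 bp), and the bodies together covered 7523810 bp, of which 1063317 bp were coding. Their median GC content was 36.9%, against 45.8% in the other protein-coding genes, and 26.3% of their bases were repeat-masked. In the median member 87.2% of the 25-base words occurred once in the genome, against 58.0% in the median vomeronasal receptor, so reads of 25 bases could be placed in most but not all of the sequence. Of the members, 96 overlapped another gene and 27 overlapped another Olfr gene.

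Densities below are distinct fragments, those with identical coordinates counted once, per kb of sequence and per 1000000 distinct fragments of the library (FPM per kb). The libraries held 159611 to 6746382 distinct fragments, and the shallowest were the 4 IgG libraries and the H3K27me3 library of WT replicate 2 (200457). Between 290 and 7684 fragments per library lay in the members, so a body of median length was expected to hold 0.341 to 9.65 of them and a single gene in a single library was often a count of 0. The H2afb bodies do not check the labels, since only a stretch of each was edited: over the 3 genes and all 4 antibodies the KO animals had 9 and 10 fragments and the WT animals 4 and 12. As a check of the cell type, 6 of 8 round spermatid markers (Acrv1, Catsper3, Spaca1, Tnp1, Tnp2 and Tssk6) had H3K4me3 at their start at 2 or more FPM per kb in every library, against 41.8% of all genes, and none of 5 spermatogonial, 5 Sertoli or 5 Leydig cell markers did. Of the round spermatid list, the protamine genes Prm1 and Prm2 did not pass, with mean start densities of 0.768 ± 0.375 and 4.92 ± 2.17. The mean start-site H3K4me3 density was 5.90 to 8.32 over the round spermatid list, 3.70 to 6.23 over the spermatocyte list, which overlaps it, 0.265 to 0.892 over the spermatogonial list, 0.127 to 0.445 over the Sertoli list and 0 to 0.177 over the Leydig list. Of 5 spermatocyte markers, Hormad1, Meiob and Sycp3 were marked, and of 5 olfactory neuron markers only Gnal was.

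Olfr bodies were sparser in H3K4me3 and H3K27me3 than other gene bodies, while for H3K9me3 the direction depended on which bases were counted. H3K9me3 density in the members was 0.138 and 0.195 in the KO libraries and 0.139 and 0.169 in the WT libraries, against a mean of 0.210 ± 0.030 (SD, n = 4) in all other protein-coding bodies, but on bases outside repeat masking it averaged 0.134 in the members and 0.0890 in the others. H3K27me3 density was 0.186 and 0.169 in KO and 0.196 and 0.192 in WT, against 0.439 ± 0.014 in the other bodies. H3K4me3 density was 0.114 and 0.154 in KO and 0.124 and 0.141 in WT, against 0.491 ± 0.033. For H3K27me3 and H3K4me3 every library was lower in the members than in the other genes, with no overlap. IgG was also lower in the members, at 0.256 ± 0.028 against 0.346 ± 0.015, so each mark was read against IgG.

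**Figure D1:**
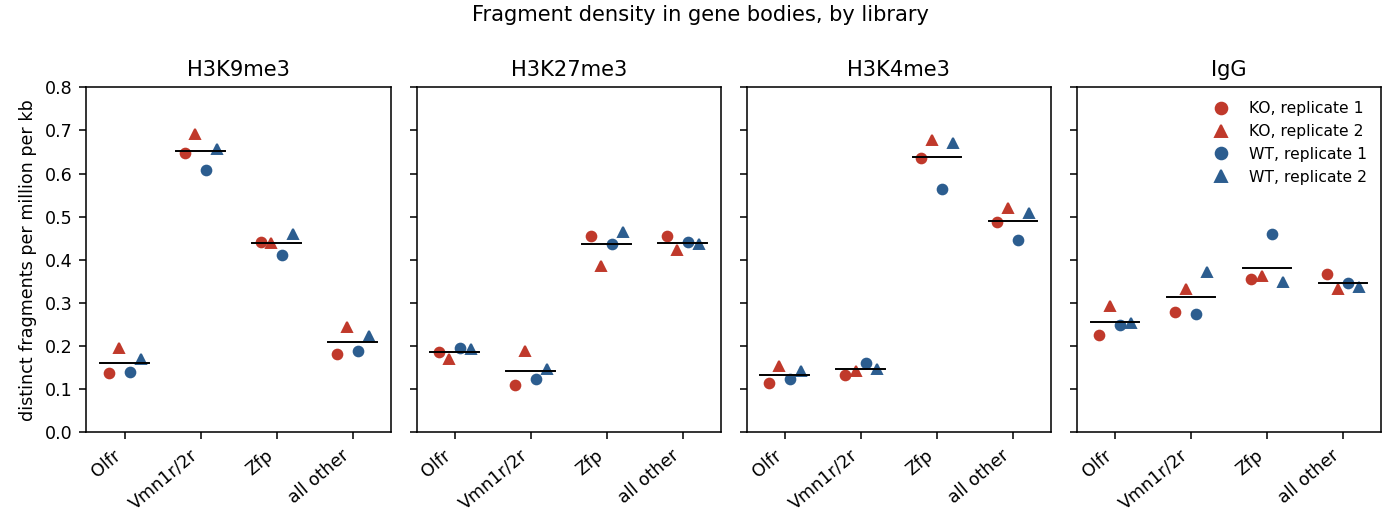
Fragment density (FPM per kb) in the gene bodies of 4 families for each antibody. Each point is 1 library, circles and triangles are the 2 sibling pairs, and the black line is the mean of the 4 libraries. Olfr bodies averaged 0.186 in H3K27me3 and 0.133 in H3K4me3, below the Zfp and the remaining genes, and in H3K9me3 they lay below vomeronasal receptor (Vmn1r/2r) bodies at 0.651.

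On a log2 scale the ratio of Olfr to other gene-body density was -1.24 ± 0.08 (SD, n = 4) in H3K27me3, -1.88 ± 0.15 in H3K4me3 and -0.44 ± 0.21 in IgG. The H3K27me3 ratio was lower than the IgG ratio by -0.80 (exact two-sided permutation test of 4 against 4 libraries, p = 0.0286, the smallest the design allows, and 0.0429 after Benjamini-Hochberg adjustment over 3 marks). The H3K4me3 ratio was lower by -1.44 (exact permutation p = 0.0286, adjusted 0.0429). Mark and IgG libraries came from the same 4 males, and with the male as the pair the exact sign-flip p was 0.125 for both marks, the smallest that 4 pairs allow, so that neither was called. Within each sibling pair both mark libraries were also below both IgG libraries. Both differences kept their direction, between -0.62 and -1.19 for H3K27me3 and between -1.03 and -2.80 for H3K4me3, under every other way of counting that was tried.

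For H3K9me3 the ratio was -0.40 ± 0.05, and its difference from IgG of 0.046 was within the spread of the libraries (exact permutation p = 0.657). This value depended on a few bodies that are no members. A set of 12 other gene bodies, 29.8 kb in all, had a mean IgG density above 100 FPM per kb, and took 40.9 to 44.7% of the H3K9me3 fragments of all other gene bodies and 15.3 to 33.6% of their IgG fragments. Without them Olfr bodies lay above IgG in H3K9me3 by 0.47 (exact permutation p = 0.0286), and by 0.75 where only bases outside repeat masking were counted (exact permutation p = 0.0286). Counting every deposited fragment, copies included, turned the difference to -1.06 (exact permutation p = 0.0286). The direction for H3K9me3 over the whole family therefore depended on how fragments were counted.

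Gene by gene, H3K4me3 differed most from the other genes and H3K9me3 least. The median density over the 1128 members was 0.0617 in H3K9me3, nearly that of all other genes (0.0629), and 48.8% of members lay above the median of the others. In H3K27me3 the medians were 0.0633 and 0.162, and 22.2% of members lay above. In H3K4me3 they were 0.0507 and 0.436, and 35 members (3.10%) lay above. The IgG medians were 0.140 and 0.195, with 41.3% of members above. The 5% of members with the most fragments held 44.5% of the family's H3K9me3 fragments, 61.8% of its H3K27me3 fragments and 54.5% of its H3K4me3 fragments, against 76.2%, 45.7% and 28.7% for the top 5% of the other genes. Those other genes include the 12 bodies with IgG above 100 FPM per kb, which took 40.9 to 44.7% of their H3K9me3 fragments.

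Other chemoreceptor and clustered families differed from the members in some marks and not in all. Vomeronasal receptors (329 Vmn1r and Vmn2r genes, which detect pheromones) had an H3K9me3 density of 0.651 ± 0.035 (n = 4). Their H3K4me3 density of 0.146 ± 0.012 was near that of the members (0.133 ± 0.018), and their H3K27me3 density was 0.143 ± 0.034 against 0.186 ± 0.012. The log2 ratio of Olfr to vomeronasal density was lower in H3K9me3 than in IgG by -1.74 (exact permutation p = 0.0286, adjusted 0.0429 over the 15 family and region contrasts). These 15 contrasts, here and below, were chosen after the values were seen. Their p-values treat mark and IgG libraries of the same males as independent, and they were not run paired by male. In H3K27me3 the ratio was 0.70 above IgG (exact permutation p = 0.0571), and in H3K4me3 it was 0.15 above (exact permutation p = 0.314). Without Olfr2, a gene taken up below, the H3K27me3 value was 0.81 (exact permutation p = 0.0286, not adjusted). Olfr2 was singled out for its high IgG density, so leaving it out lowers the IgG ratio by construction, and this p-value decides nothing. Zinc finger (Zfp) genes, 388 in number and also often in tandem clusters, exceeded Olfr genes in all 3 marks relative to IgG: the ratio of Olfr to Zfp was lower by -0.89 in H3K9me3, -0.65 in H3K27me3 and -1.69 in H3K4me3 (exact permutation p = 0.0286 and adjusted 0.0429 for each). The 15 trace amine receptors (Taar), a small olfactory family, had an H3K27me3 density of 2.05 and 0.553 in KO and 2.10 and 0.280 in WT. Those values rest on 139, 7, 108 and 1 fragments, and the deeper replicate 1 libraries were the high ones.

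Clusters differed from one another far more than the libraries did. Among the 22 clusters of 10 or more genes, mean H3K9me3 density ran from 0.0410 to 0.767, a ratio of 18.7. The highest was on chromosome 16 (chr16:58759544-59363993, Olfr172 to Olfr209, 25 genes), with 0.761 and 0.991 in KO and 0.632 and 0.683 in WT. Next came a cluster of 49 genes on chromosome 17 (chr17:37083871-38336643, Olfr90 to Olfr136), which lies beside the major histocompatibility complex, with 0.549 and 0.997 in KO and 0.443 and 0.722 in WT. In both clusters every library was above the mean of all other genes (0.210). A chromosome 2 cluster (Olfr338 to Olfr368, 28 genes) had a mean of 0.427 and a chromosome 9 cluster (Olfr24 to Olfr18, 37 genes) of 0.403. The largest cluster, 227 genes on chromosome 2 (chr2:85330779-90403897, Olfr987 to Olfr1274-ps), had a mean of only 0.0626. The lowest lay on chromosome 1 (chr1:172950409-174451277, Olfr16 to Olfr220, 19 genes), with 0.0359 and 0.0505 in KO and 0.0369 and 0.0408 in WT, and did not overlap the highest in any library. In all, 6 of 22 clusters averaged above the other genes. The mean of the other genes includes the 12 bodies with IgG above 100 FPM per kb, and would be lower without them.

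H3K27me3 singled out different clusters. It was highest on chromosome 11 (chr11:58454105-59593289, Olfr30 to Olfr223, 23 genes), with 0.998 and 0.573 in KO and 1.198 and 1.15 in WT. This cluster had the next to lowest H3K9me3 density, 0.0578. The cluster beside histone genes on chromosome 13 (Olfr1370 to Olfr1359, 13 genes) followed with 0.582. The lowest was Olfr1275 to Olfr1318 on chromosome 2 (chr2:111230360-112159157, 39 genes), with 0.0332 and 0.0678 in KO and 0.0231 and 0.0741 in WT. Only the chromosome 11 and 13 clusters averaged above the other genes (0.439).

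The mean H3K4me3 over the 4 libraries was below that of the other genes (0.491) in all 22 clusters, and in single libraries as well except for the chromosome 17 cluster in KO replicate 2 (0.532, against 0.521 over the other genes). The chromosome 17 cluster was highest, with 0.380 and 0.532 in KO and 0.317 and 0.442 in WT, and the chromosome 1 cluster of Olfr16 was lowest, with 0.0393 and 0.0691 in KO and 0.0193 and 0.0382 in WT. IgG ran from 0.130 to 0.660. Its highest cluster, Olfr693 to Olfr519 on chromosome 7, holds Olfr2.

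**Figure D2:**
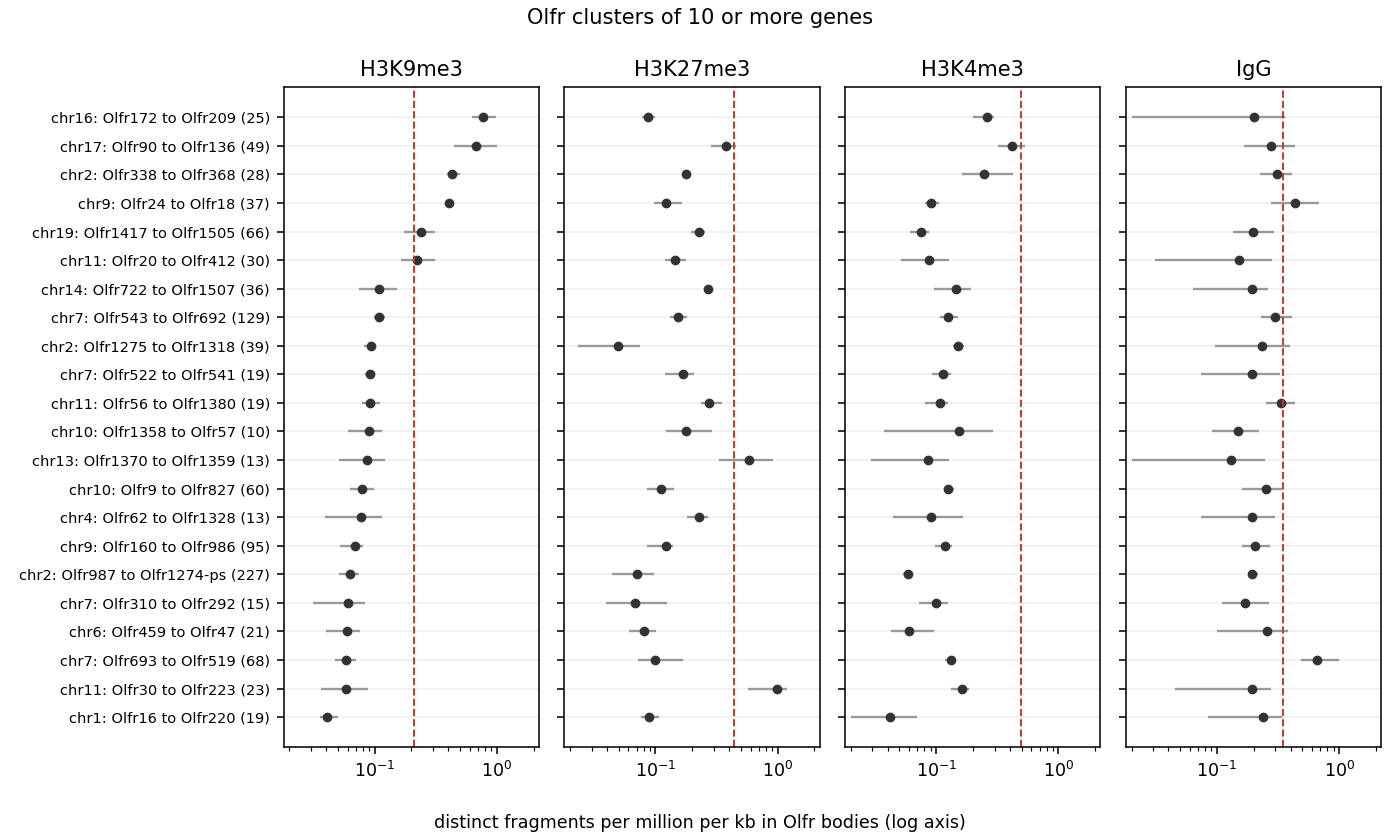
Density in the Olfr bodies of each cluster with 10 or more genes, in FPM per kb on a log axis, ordered by H3K9me3. Each dot is the mean of 4 libraries, each line runs from the lowest to the highest library (values below 0.02 are drawn at 0.02), the number of genes is in parentheses, and the dashed line is the mean of all other protein-coding bodies. That mean includes the 12 bodies with IgG above 100 FPM per kb, which raise it in H3K9me3. H3K9me3 spans 0.0410 to 0.767, and a different cluster leads in each mark.

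The order of the clusters was shared by the libraries of a mark and not by those of IgG. Over the 22 clusters, Pearson's r of log2 density between 2 libraries was 0.934 to 0.985 in H3K9me3, 0.849 to 0.978 in H3K27me3, 0.542 to 0.903 in H3K4me3 and 0.0158 to 0.454 in IgG. These are descriptions across clusters that share a library, not tests, and they are not at like depth. The cluster with the fewest fragments over the 4 libraries held 124 in H3K9me3, 49 in H3K27me3, 51 in H3K4me3 and 8 in IgG. Over the clusters, mean H3K9me3 and H3K4me3 had r = 0.62, H3K27me3 and H3K4me3 r = 0.28, and H3K9me3 and H3K27me3 r = 0.11. By rank, Spearman's rho was 0.39, 0.23 and 0.25 in that order. H3K27me3 had r = 0.61 with the clusters' GC content (H3K9me3 r = -0.28). Across the 1080 pairs of neighbors within clusters, the log2 density of a gene and that of the next had r = 0.74 in H3K9me3, 0.26 in H3K27me3, 0.27 in H3K4me3 and 0.00022 in IgG. Spearman's rho for these pairs was 0.54, 0.18, 0.24 and 0.00094. Neighbors thus resembled each other most in H3K9me3, but not at like depth. The median member held 8 fragments in H3K9me3, 3 in H3K27me3, 3 in H3K4me3 and 1 in IgG.

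By chromosome, H3K9me3 density in the members was highest on chromosomes 17 (0.622, 53 genes) and 16 (0.534, 36 genes) and lowest on chromosome 1 (0.0382, 27 genes). On chromosomes 2 and 7, which carry 294 and 244 members, it was 0.106 and 0.0964. H3K27me3 was highest on chromosome 15, whose 9 members include Olfr283 (1.29, from 862 fragments). Among chromosomes with 10 or more members it was highest on chromosome 13 (0.502, 15 genes) and lowest on chromosome 2 (0.0793), and the 2 members on chromosome 3 had 0.0396 from 7 fragments.

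Windows of 1 Mb, which include the sequence between genes, allowed a test against IgG with limma-voom. Of 2413 autosomal windows, 36 held 10 or more members. In H3K9me3 the median window was 1.36 lower than IgG on the log2 scale (-1.36), and the median Olfr window was at -0.68. Library sizes in this fit included X and Y. In KO replicate 1, 3963850 of 6746382 distinct H3K9me3 fragments were autosomal, against 236269 of 270598 in IgG. The part of this in the lower windows was not tested. At an adjusted p under 0.05, 4 Olfr windows were higher than IgG, against 5.06% of all windows, and 21 were lower, against 73.4%. Relative to the median of all windows, 33 of 36 Olfr windows were above and their median was 0.68 higher. The 4 windows called higher were at 38 to 39 Mb (3.44 above the median of all windows) and 37 to 38 Mb (2.28) of chromosome 17, 13 to 14 Mb of chromosome 19 (2.43) and 36 to 37 Mb of chromosome 2 (2.19). With median-of-ratios size factors, 12 Olfr windows were higher and 1 lower, and of all windows 341 were higher and 128 lower. With the male as a block in the fit, 5 Olfr windows were higher and 27 lower, and of all windows 146 were higher and 2103 lower.

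In H3K27me3, 7 Olfr windows were higher than IgG, against 32% of all, and 23 were lower, against 40.4%. With the male as a block in the fit these were 5 and 24, against 768 and 991 of all windows. The windows at 36 to 37 Mb of chromosome 2 and 49 to 50 Mb of chromosome 11 lost their higher call. The median was -0.57 relative to all windows, with 26 of 36 below. The highest were 118 to 119 Mb of chromosome 4 (2.62) and 21 to 22 Mb of chromosome 13 (2.02), and the lowest was 111 to 112 Mb of chromosome 2 (-2.15). In H3K4me3, 8 were higher, against 36.8%, and 19 lower, against 38%, with a median of -0.43. With the male as a block in the fit these were 10 and 18, against 915 and 906 of all windows. The highest there was the chromosome 11 window that holds 21 members and most of the 23-gene cluster with the most H3K27me3 (1.78). Windows hold other genes too, so these values are not those of the members alone.

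**Figure D3:**
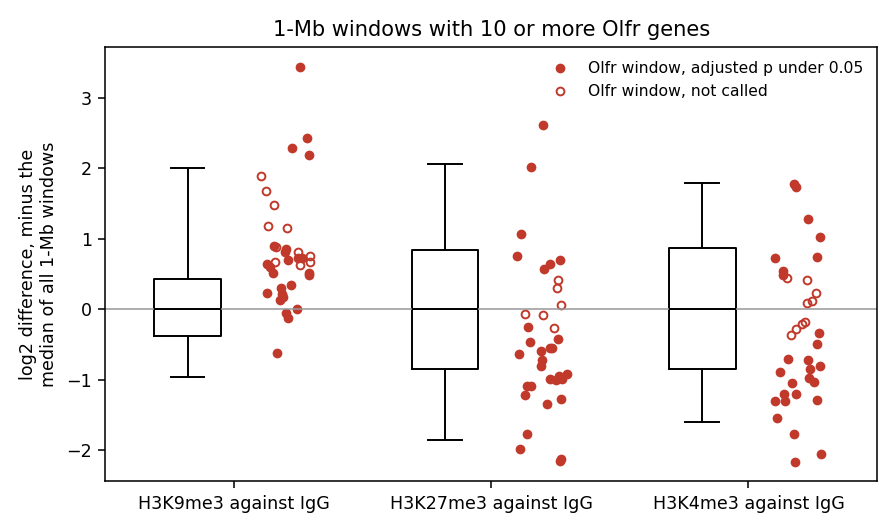
Log2 difference of each mark from IgG in 1-Mb windows, with the median of all 2413 windows set to 0. Boxes show all windows (box, quartiles, whiskers, 5th and 95th percentiles) and points the 36 windows with 10 or more Olfr genes, filled where the unshifted difference from IgG had an adjusted p under 0.05 in either direction. In H3K9me3, 33 of 36 points lie above 0, and in H3K27me3 26 lie below.

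Within clusters, H3K9me3 was denser outside protein-coding genes than in the receptor gene bodies. In the clusters of 10 or more genes its density was 0.412 ± 0.033 (n = 4) in sequence outside any protein-coding gene and 0.157 ± 0.027 in the Olfr bodies. The former is called between genes here, although noncoding genes and pseudogenes were not taken out of it. In IgG these densities were 0.465 ± 0.034 and 0.259 ± 0.030. The log2 ratio of between genes to bodies exceeded that of IgG by 0.55 in H3K9me3 (exact permutation p = 0.0286, adjusted 0.0429), though only by 0.42 without Olfr2 (exact permutation p = 0.114). It differed from IgG by -0.24 in H3K27me3 (exact permutation p = 0.0857) and by 0.25 in H3K4me3 (exact permutation p = 0.343). With every deposited fragment, duplicates included, these were 0.336 and 0.772 (exact permutation p = 0.0286 for each), so the direction in H3K27me3 turned. Around the start sites of the members, H3K9me3 fell from 0.336 ± 0.023 at 4.9 kb upstream to 0.142 ± 0.032 just after the start, while over other genes it was 0.207 and 0.165. IgG at the members' starts went from 0.416 ± 0.105 to 0.166 ± 0.132 over the same distance, so the background was also higher upstream.

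Coding sequence stood apart for H3K27me3. In the 1063317 coding bases of the members, H3K27me3 density was 0.404 and 0.210 in KO and 0.422 and 0.361 in WT, and in the rest of the bodies it was 0.150 and 0.162 in KO and 0.159 and 0.164 in WT. Every library was higher in the coding part. IgG went the other way, with 0.148 ± 0.067 against 0.274 ± 0.024. Relative to IgG the log2 ratio of coding to other bases was 2.08 higher in H3K27me3 and 1.26 higher in H3K4me3 (exact permutation p = 0.0286 and adjusted 0.0429 for both), and 0.78 higher in H3K9me3 (exact permutation p = 0.0571). The ratio itself averaged 1.09 in H3K27me3, 0.26 in H3K4me3, -0.21 in H3K9me3 and -0.99 in IgG. For H3K4me3 and H3K9me3 the difference thus lay mostly or wholly in the fall of IgG, which rests on 15 to 50 coding fragments per library. Over the members, IgG density was 0.538 in repeat-masked and 0.155 in unmasked bases. The coding bases held 8.78 CG dinucleotides per kb and had a GC content of 44.7%, and the rest of the bodies held 4.20 per kb with 36.4%.

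H3K27me3 also moved with CpG content from gene to gene. When the members were divided into 4 bins of 282 genes by CG dinucleotides per kb, H3K27me3 density was 0.0822 ± 0.026, 0.0858 ± 0.030 and 0.112 ± 0.028 in the lower 3 bins. In the bin richest in CpG, with 5.48 to 33.1 per kb, it was 0.510 and 0.324 in KO and 0.538 and 0.392 in WT, so that no library overlapped those of the other bins. IgG was 0.275 in the poorest and 0.277 in the richest bin, H3K9me3 0.184 and 0.159, and H3K4me3 0.105 and 0.198. Across the 1128 members, log2 H3K27me3 density and CpG content had r = 0.46 and Spearman's rho = 0.24, as a description over genes that share their libraries. The part of GC content or mappability in this was not tested.

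Class I receptors, which resemble those of fish, sit in 1 cluster on chromosome 7 (chr7:102476579-105369355, Olfr543 to Olfr692), and its 129 members were compared with the 999 class II members. Relative to IgG, the log2 ratio of class I to class II density was lower by -0.84 in H3K9me3, -0.54 in H3K27me3 and -0.35 in H3K4me3 (exact permutation p = 0.0286 and adjusted 0.0429 for each). With every deposited fragment the calls were lost in H3K27me3 (-0.445) and H3K4me3 (-0.573, exact permutation p = 0.0857 for each). As class I is a single cluster, class and position cannot be told apart. In IgG itself class I bodies were the denser, with a log2 ratio of 0.23 ± 0.26 (n = 4).

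The 5 members densest in H3K9me3 were Olfr175-ps1, Olfr178, Olfr461, Olfr177 and Olfr135. Olfr175-ps1 (chr16:58823662-58826782), which carries a pseudogene name although it is annotated as protein-coding, had 2.99 and 2.45 FPM per kb in KO and 2.501 and 3.07 in WT. Olfr178 (chr16:58888308-58892063) had 2.84 and 2.79 in KO and 2.42 and 2.34 in WT. Both lie in the chromosome 16 cluster, as does Olfr177 (chr16:58870955-58874768), which had 2.45 and 3.30 in KO and 1.71 and 1.47 in WT. For all of them the H3K9me3 values were many times those of H3K27me3, whose means were 0.0842, 0.046 and 0.149. Olfr461 (chr6:40542171-40555050) had a mean of 2.45, but only 39.9% of its 25-base words were unique and IgG was 1.43, the highest background of the 5. Olfr135 in the chromosome 17 cluster (chr17:38204335-38210915) had a mean of 1.71 ± 0.41 and no IgG fragment, where a count of 0 allows up to 3.

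H3K27me3 reached higher densities than any other mark in a member. Olfr94 (chr17:37196425-37200994), in the chromosome 17 cluster and 7102 bp from the start of the ubiquitin-like gene Ubd, had 16.1 and 6.15 in KO and 14.7 and 9.82 in WT. Its neighbor Olfr95 (chr17:37207950-37213118) had 7.37 and 2.17 in KO and 7.69 and 3.86 in WT. Olfr283 (chr15:98377699-98380946) had 8.41 and 6.06 in KO and 8.41 and 4.61 in WT. Replicate 1 was higher in each of them, in KO and in WT alike, and replicate 2 rested on 3 to 20 fragments per gene. Olfr750 (chr14:51066301-51074435) averaged 5.14 ± 1.75 and Olfr214 (chr6:116554235-116560611) 4.64 ± 2.04. Among all members, Olfr94, Olfr283, Olfr750 and Olfr95 ranked 2, 3, 9 and 20 in CG dinucleotides per kb, and Olfr214 ranked 123. The 5 leading H3K9me3 genes ranked between 159 and 1086. These ranks are for whole bodies, and over the single stretches of 300 bases the 2 marks overlapped in CG dinucleotides, as given above.

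H3K4me3 led in Olfr761, Olfr1413, Olfr128, Olfr127 and Olfr181. Olfr761 (chr17:37952051-37953079) had 11.5 and 10.02 in KO and 9.91 and 5.79 in WT. Olfr128 (chr17:37920548-37926801) averaged 4.29 ± 1.27 and Olfr127 (chr17:37900437-37906795) 4.24 ± 0.72. These 3 lie near each other, and only 47.5, 76.1 and 71.6% of their 25-base words were unique, so their values are uncertain where reads fit several copies. Olfr1413 (chr1:92571322-92574397), with a mean of 5.48 ± 2.16, overlaps another gene, and the start of 1700054K02Rik lies 1427 bp from its own. Olfr181 (chr16:58924707-58928755) averaged 4.04 ± 0.64 and overlaps Olfr180. Reads of overlapping genes cannot be told apart here.

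Olfr16, a receptor known from mouse testis and sperm (chr1:172950409-172958357), carried little of any mark. Its H3K4me3 density was 0.0933 and 0.0371 in KO and 0 in both WT libraries, from 2 fragments in all. Means were 0.0403 in H3K9me3, 0.030 in H3K27me3 and 0.116 in IgG. Olfr2, singled out after its values were seen (chr7:106995399-107006072), had the highest IgG density of the members, with 13.8 and 3.30 in KO and 24.3 and 14.1 in WT. It took 1.59 to 13.8% of all IgG fragments in the members and none of them in its coding part, and its H3K9me3 density was 0.139 ± 0.034.

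At the start sites, H3K4me3 was rare in the family. Counted from 1 kb before to 1 kb after the annotated start, 10 of 1128 members had 2 or more FPM per kb in every H3K4me3 library, against 41.8% of all protein-coding genes. They were Olfr1033, Olfr275, Olfr212, Olfr643, Olfr701, Olfr736, Olfr180, Olfr181, Olfr112 and Olfr761. Olfr701, whose upstream sequence is printed above, had 10.8 and 8.84 in KO and 13.4 and 11.2 in WT, but the start of 4930458B22Rik, which is not annotated as protein-coding, lies 27 bp away. Olfr180 had 11.5 and 11.2 in KO and 10.8 and 9.86 in WT and shares much of its window with Olfr181. Olfr112 in the chromosome 17 cluster averaged 10.6 ± 2.9 with no IgG fragment, and the nearest start of a gene that is no member lies 40058 bp away. Olfr212 averaged 5.12 ± 1.66. None of the 10 had the start of a protein-coding gene outside the family within 1 kb.

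For H3K27me3, 2 members passed the same threshold (Olfr474 and Olfr284), against 19.3% of all genes. For H3K9me3 only Olfr175-ps1 did, against 0.952%, and in IgG no member did, against 0.202%. No member start had both H3K4me3 and H3K27me3, a state that 370 of all genes showed. Averaged over the members, H3K4me3 density in the 200 bp just upstream of the start was 0.168 ± 0.022 (n = 4), against 5.66 ± 0.83 over the other genes. H3K27me3 there was 0.135 ± 0.032 against 3.31 ± 0.80.

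**Figure D4:**
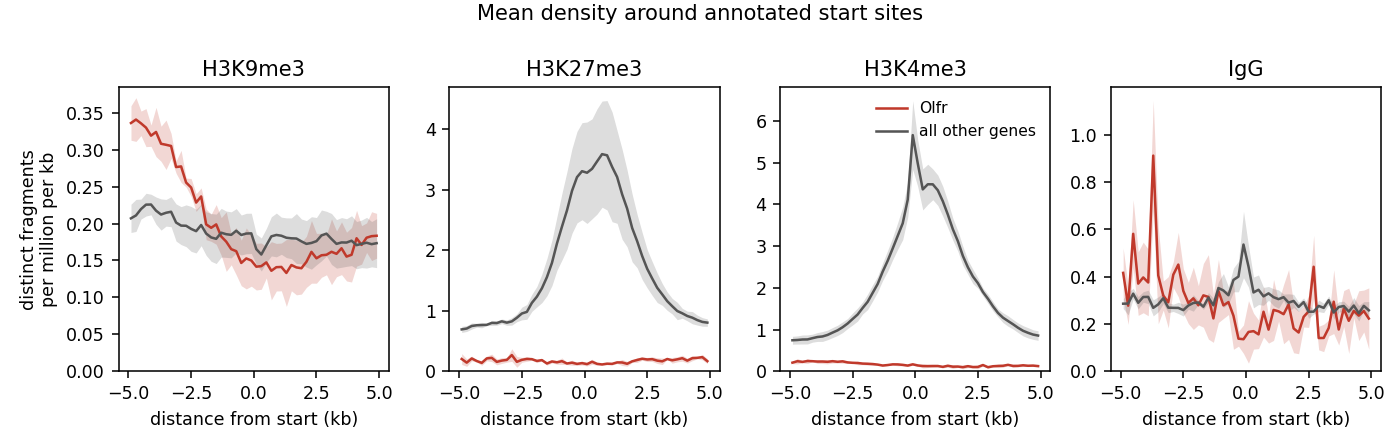
Mean density around annotated start sites in bins of 200 bp, in FPM per kb, for Olfr genes and all other autosomal protein-coding genes. Lines are means of 4 libraries and bands the SD, and 13 other genes with a mean IgG density above 20 within 5 kb were left out. Other genes peak near 5.66 in H3K4me3 and 3.59 in H3K27me3 while the Olfr line stays at or below 0.269 in both, and in H3K9me3 the Olfr line is above the other genes at 4.9 kb upstream (0.336 against 0.207) and below them just upstream of the start (0.150 against 0.187).

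The members' promoters differed from all promoters in the share that held each of 4 short words, given as a description with no test. RefSeq promoter windows (250 bases before to 50 after the start, GRCm38) were matched by name for 925 members with 929 windows, out of 32851 windows of all genes. The letters TAATNA, a homeobox-like word, were in 65.98% of the members' windows and 26.5% of all. TATAAA was in 41.1% and 13.6%, and CCCNNGGG, the core of the Ebf (Olf1) word, in 3.01% and 13.7%. A CG dinucleotide was present in 66.2% and 94.6%, with a median of 1 and 7 per window. Each word was searched on both strands and separately, so matches may overlap, and a match is a description of the letters only. RefSeq starts differed from the GENCODE starts by 0 to 77805 bp among 7 of the 10 H3K4me3-marked members that had a RefSeq window.

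Genes that act with the receptors in olfactory neurons were counted in the same way. Of 23 genes of odor signaling and receptor choice, all measured, 9 had H3K27me3 at the start in every library, where 19.3% of all genes did. They were Ebf1, Ebf2, Ebf3, Ebf4, Emx2, Ldb1 and Lhx2, which regulate transcription, and Reep1 and Rtp2, which help receptors reach the cell surface. H3K4me3 was at the start of 5, where 41.8% of all genes had it: Atf5, a stress-response regulator, Cbx5, which encodes the heterochromatin protein HP1α, Gnal, the olfactory G protein, Kdm1a, a lysine demethylase, and Ric8b, a partner of Gnal. The other 9, Omp, Stoml3 and Rtp1 among them, passed for neither mark. The mean start-site H3K27me3 density of the list was 7.35 and 5.07 in KO and 6.50 and 7.05 in WT, and its IgG was 0.161 to 0.409.

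The comparison of KO with WT asked whether loss of H2A.B altered the marks on the members. No gene body was called at an adjusted p under 0.05 by limma-voom in H3K9me3 (0% of 16169 tested), H3K27me3 (0% of 13304) or H3K4me3 (0% of 17174), and none of the 509, 136 and 125 members that passed the filter of 10 fragments was. At an unadjusted p under 0.05 there were 8, 7 and 39 gene bodies and no member, and by limma-trend 3, 49 and 70 with 0, 2 and 0 members. With the sibling pair in the fit, 978, 316 and 830 gene bodies had an unadjusted p under 0.05, with 32, 8 and 7 members. That fit gave 40 calls in H3K9me3, of which none was a member, and the smallest adjusted p of a member was 0.186 (Olfr124). The median log2 difference of KO from WT over the tested members was 0.01 in H3K9me3, -0.27 in H3K27me3 and -0.06 in H3K4me3, beside -0.06, -0.09 and 0.06 over all genes tested. Without the pair in the fit the median standard error of a member was 1.10, 1.09 and 0.87, so a 2-fold change in a single receptor gene was within the error of that fit.

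The members with the smallest unadjusted p are given by that rule alone. Olfr124 (chr17:37799888-37808617) had an H3K9me3 density of 1.56 and 2.25 in KO and 0.987 and 1.35 in WT, a log2 difference of 0.69 ± 0.44 (SE), and both KO libraries were above both WT libraries. Olfr1283 had 8 and 2 fragments in KO and 0 in WT, while Olfr1087 and Olfr675 had 0 to 2 fragments in KO and 4 to 6 in WT. These are counts of a few fragments. In H3K27me3, Olfr1361 (chr13:21656880-21663386) had 3.51 and 1.73 in KO and 2.66 and 0 in WT, and Olfr157 had 0.734 and 0.145 in KO and 0.107 and 0 in WT, both with 0 fragments in the shallow WT library. Olfr1366 and Olfr31 were lower in KO by the fit, at -2.27 for each. Each rested on 11 fragments over the 4 libraries, 3 of them in the shallow WT library, where they gave densities of 1.94 and 1.67. In H3K4me3, Olfr1358 (chr10:78517428-78520566) had 1.65 and 3.94 in KO and 0.406 and 1.46 in WT, a difference of 1.37 ± 0.75. Olfr330 differed by 1.97, and Olfr1440 and Olfr55 by -2.10 and -1.67, from only 11, 11 and 13 fragments over the 4 libraries. Of the 25-base words of Olfr55, 19.0% were unique. The limma-voom adjusted p of each of these 12 genes was at least 0.9998.

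Over the family as a whole, no difference between KO and WT could be called in this design. The log2 ratio of Olfr to other gene-body density in H3K9me3 was -0.40 and -0.33 in KO and -0.44 and -0.41 in WT. In H3K27me3 it was -1.30 and -1.32 in KO and -1.17 and -1.19 in WT, so that both KO libraries lay below both WT libraries. The difference of KO from WT was 0.06 in H3K9me3 (pooled SD 0.04) and -0.13 in H3K27me3 (pooled SD 0.015), with an exact permutation p of 0.333 for each, the smallest that 2 against 2 libraries allow. With every deposited fragment the H3K9me3 difference turned to -0.344. Without satellite-like bodies and Olfr2 it was 0.131 in H3K9me3 and -0.0634 in H3K27me3, where the KO and WT libraries were no longer apart (exact permutation p = 0.667). In H3K4me3 it was -0.08 (pooled SD 0.17, exact permutation p = 1), with pairs at -0.26 and 0.09, and in IgG 0.0025 (pooled SD 0.26, exact permutation p = 1). The adjusted p over the 8 comparisons of KO with WT was 0.889 or 1.

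Fragment length was the other measure compared. Small fragments of at most 120 bp are shorter than a nucleosome's DNA, and large ones of 150 bp or longer span a nucleosome. In the Olfr bodies the H3K4me3 libraries had a log2 small-to-large ratio of -0.57 and -0.27 in KO and -1.17 and -1.34 in WT, with no overlap, a difference of 0.83 (pooled SD 0.18, exact permutation p = 0.333). In H3K9me3 it was -1.67 and -0.57 in KO and -2.26 and -1.12 in WT, a difference of 0.56 (pooled SD 0.79). In H3K27me3 it was -2.41 and -0.31 in KO and -2.91 and -1.01 in WT, a difference of 0.60 (pooled SD 1.42). For these 2 marks the sibling pairs differed from each other by more than KO from WT, yet KO was higher in each pair (0.58 and 0.55 in H3K9me3, 0.50 and 0.69 in H3K27me3). IgG, which binds no histone mark, also had the higher ratio in KO, by 0.63 and 0.48 in the pairs. Its mean difference of 0.56 became 1.23 with every deposited fragment (exact permutation p = 0.333).

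**Figure D5:**
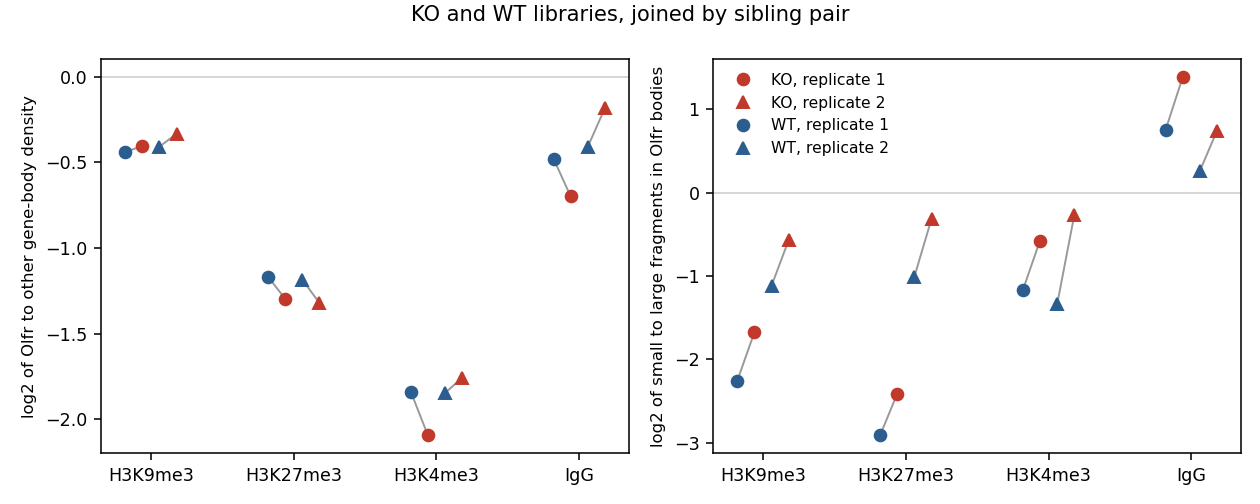
Left, log2 ratio of Olfr to other gene-body density, and right, log2 ratio of small (at most 120 bp) to large (150 bp or longer) fragments in Olfr bodies. Each point is 1 library, and gray lines join KO and WT of a sibling pair. On the right every line rises from WT to KO, IgG included, and on the left H3K27me3 falls in both pairs by about 0.13.

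The same ratio was taken over all other gene bodies, where H3K4me3 gave -0.88 and -0.71 in KO and -1.57 and -1.68 in WT. In H3K9me3 it was -2.07 and -1.27 in KO and -2.46 and -1.58 in WT, and in IgG 0.30 and 0.17 in KO and 0.08 and -0.29 in WT. The tests below leave the sibling pairs out, and 2 pairs cannot give a sign-flip p under 0.5. The difference of KO from WT in Olfr bodies minus that in other bodies was 0.21 in H3K9me3 and 0.21 in IgG (exact permutation p = 0.667 for each), -0.08 in H3K27me3 (exact permutation p = 1) and 0.0005 in H3K4me3 (exact permutation p = 1).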

How the data were processed

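AutoCUT&RUN fragments of 16 libraries were analysed, 2 each for 4 antibodies and 2 genotypes. The authors aligned paired reads of 25 bases to mm10 with Bowtie2 (version 2.3.4.3 in the submitters' processing notes, while the study's methods name another version) and deposited the start, end and length of each fragment of 10 to 700 bp as BED files. The deposited files hold no score or normalized value. Between 33.6 and 83.4% of the deposited fragments repeated the coordinates of another in the library although the study's methods name duplicate marking, so each position was counted once.

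A fragment was assigned by its midpoint to gene bodies of GENCODE vM21, taken as annotated start to end. Density is distinct fragments per kb per 1000000 distinct fragments on the autosomes, X and Y (FPM per kb), from 159611 to 6746382 distinct fragments per library, which limits IgG and the H3K27me3 library of WT replicate 2 most. Log2 ratios of whole sets were compared between 4 libraries of a mark and 4 of IgG by exact two-sided permutation (smallest p 0.0286), and between 2 KO and 2 WT libraries (smallest p 0.333). The 4 animals gave every library, so mark and IgG libraries share animals. Gene bodies with 10 or more fragments (KO against WT) and 1-Mb windows (mark against IgG, with genotype in the model) were fitted with limma-voom on the whole table (limma 3.58.1, R 4.3.3) with Benjamini-Hochberg adjustment at 0.05. Counting and exact tests ran in SciPy 1.17.1 and pandas 2.3.3 under Python 3.11.15 with NumPy 2.4.6, matplotlib 3.10.9 drew the figures, and the fits were tested on simulated data. RefSeq promoters and the GRCm38 genome gave the sequences.

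The replicate number marks the sibling pair and goes with the codes in the sample titles. Replicate differences of KO and WT had r = 0.447 in H3K9me3, 0.381 in H3K27me3, 0.355 in H3K4me3 and 0.170 in IgG over gene bodies, so the pair was used as a block in an alternative for KO against WT. For mark against IgG the alternative used the animal as the block.

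Named genes were the 5 members of at least 1 kb and 20 fragments with the highest mean density per mark, Olfr16, the 2 members with the smallest p in each direction for KO against WT, and the clusters highest and lowest per mark. The members and gene lists were chosen with earlier results of these data known. Chosen after the values were seen were the family and region contrasts, the start-site threshold of 2, the starts left out of the profile, Olfr2, and the alternatives without repeats, satellite-like bodies or Olfr2. Protein sequences were not used here.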

Additional observations from a re-analysis of the deposited data

Results flagged for a closer look

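The log2 ratio of Olfr to other gene-body density moved in opposite directions in 2 marks when duplicates were counted once. In H3K9me3 the KO male of each sibling pair exceeded its WT brother, by 0.0375 and 0.0756. In H3K27me3 the difference was -0.129 and -0.135. With every deposited fragment both mean differences were negative, at -0.344 and -0.0592. The difference between the marks was not tested.

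X-linked Olfr genes were outside the autosomal comparisons. Their 7 bodies had an H3K9me3 density of 1.41 and 1.25 in KO and 1.02 and 1.09 in WT, a mean of 1.19, against 0.0482 in IgG. The other X-linked protein-coding bodies averaged 1.16.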

How the results depend on the processing

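For Olfr against other gene bodies, H3K9me3 minus IgG was -1.06 with every deposited fragment, -0.264 as a median over genes, -0.175 against the whole autosomes and -0.0369 without bodies that overlap another gene. It was 0.469 without satellite-like bodies, 0.750 on unmasked bases and 0.589 without satellite-like bodies and Olfr2. With mark and IgG paired by male as replicate block, H3K27me3 (-0.80) and H3K4me3 (-1.44) had an exact sign-flip p of 0.125, the smallest that 4 pairs allow, and with the sibling pair as the block H3K9me3 KO against WT gave 40 gene bodies. No gene body was called with the sibling pair as the block in H3K27me3 or H3K4me3. Among the 36 Olfr windows, the male as the block moved the calls from 25 to 32 in H3K9me3, from 30 to 29 in H3K27me3 and from 27 to 28 in H3K4me3, and single windows changed call in each mark. The family and region contrasts were not run with mark and IgG paired by male, where 4 pairs cannot go below 0.125. Without Olfr2, Olfr to vomeronasal H3K27me3 was 0.814 and between genes to bodies H3K9me3 0.424. Every deposited fragment gave -0.0607 for Olfr to vomeronasal H3K4me3, 0.336 and 0.772 for between genes to bodies in H3K27me3 and H3K4me3, -0.445 and -0.573 for class I to class II in H3K27me3 and H3K4me3, -0.344 for H3K9me3 KO minus WT and 3 H3K27me3 gene bodies called. Against the whole autosomes, H3K9me3 KO minus WT was 0.113. No filter on low counts gave 1 H3K27me3 gene body, and median-of-ratios factors 469 H3K9me3 windows against 1893. The H3K27me3 difference in fragment length, Olfr minus other genes, was -0.0753. The cause of these changes was not tested.

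Leaving out each replicate leaves 3 against 3 libraries, whose smallest p is 0.1, so every called contrast with IgG lost its call by construction. The ranges were, for H3K9me3, H3K27me3 and H3K4me3 in that order, -0.0375 to 0.111, -0.868 to -0.688 and -1.47 to -1.40 for Olfr against other genes. For Olfr to Zfp they were -0.959 to -0.847, -0.782 to -0.578 and -1.82 to -1.64, and for class I to class II -1.04 to -0.584, -0.670 to -0.398 and -0.422 to -0.262. Olfr to vomeronasal H3K9me3 ranged from -1.85 to -1.66, between genes to bodies H3K9me3 from 0.423 to 0.671, and coding to other bases from 1.75 to 2.53 in H3K27me3 and 1.03 to 1.44 in H3K4me3. For between genes to bodies and Olfr to vomeronasal in H3K4me3 they were 0.0829 to 0.355 and 0.0445 to 0.286. KO minus WT ranged from 0.0213 to 0.0919 in H3K9me3, -0.251 to 0.0860 in H3K4me3 and -0.256 to 0.261 in IgG for Olfr against other genes, and in fragment length from -0.00528 to 1.13 in H3K9me3, -0.451 to 1.65 in H3K27me3 and 0.235 to 0.881 in IgG. Gene bodies called ranged from 0 to 27 in H3K9me3 and 0 to 4 in H3K27me3. Of the other alternatives, 104 kept direction and call, 8 turned direction, 5 gained a call, 5 lost it and 4 counts moved. For counts of windows or gene bodies the total was compared and not which ones were called. Many of the 104 could not change. Exact tests of KO minus WT cannot go below 0.333, or 0.5 by sign flip, and a block leaves the difference in an exact test as it was.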
